A study of Mus musculus with 15 samples.

Results

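The kidneys of mice that received both angiotensin II (Ang II) and Qingda granule (QDG) were compared with those of untreated Control mice, 5 mice in each group, out of 15 mice in the series. Members were taken by the group label alone, and the comparison addresses which transcripts still differed from Control in mice given QDG on top of Ang II. All animals were wild-type male C57BL/6 mice, bought at 8 weeks of age. The Ang II + QDG mice were infused with Ang II at 500 ng/kg/min for 28 days from implanted osmotic pumps and took QDG at 1.145 g/kg/d by mouth. The Control mice carried pumps with saline and drank the vehicle, water, by gavage. The remaining 5 mice, the Ang II group, had the same infusion and water in place of QDG, and for part of the genes their values are given beside the others. No group received QDG without Ang II, so a difference from Control that Ang II left and one that QDG brought cannot be told apart from these 10 mice alone. Each library came from the total RNA of a whole piece of kidney, in which fewer cells of a type and less RNA per cell cannot be told apart.

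Ang II is the effector peptide of the renin-angiotensin system. Through its type 1 receptor it constricts vessels, drives aldosterone release and sodium retention, and over weeks of infusion raises blood pressure and injures glomeruli, vessels and tubules. QDG is a granule made from 4 herbs of Chinese medicine, Gastrodia elata, Uncaria rhynchophylla, Scutellaria baicalensis and Nelumbo nucifera, that is used against hypertension. The kidney holds proximal and distal tubule segments that reabsorb salt and solutes, podocytes and endothelium that form the filter, smooth muscle in the arterioles, and resident leukocytes, and each of these expresses genes of its own.

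The values were FPKM (fragments per kilobase of transcript, scaled to the mapped fragments of the library), summed per gene over the annotated transcripts that all 15 mice have in common. Of 13929 such genes, 12364 reached a sum of 1 in at least 5 mice and were tested on log2(sum + 1) with limma's moderated test, in 1 model of all 15 mice. Fold changes below are on that scale, which understates the change of genes with low FPKM, and "adjusted p" means the Benjamini-Hochberg value over all 12364 genes. The depth implied by the values was 75034600 to 81329500 reads per Control mouse and 68922900 to 76143500 per Ang II + QDG mouse. Transcripts of the mitochondrial genome took 18.5% to 20.7% of the summed FPKM in Control and 16.9% to 19.8% in Ang II + QDG. Nothing in the labels says how RNA was batched, and the p-values measure the spread between these mice. Markers of the proximal tubule, thick ascending limb, distal convoluted tubule and collecting duct were present in all mice, for example Umod of the thick ascending limb at 913 to 1161 in Control and 1010 to 1308 FPKM in Ang II + QDG. Renin (Ren1), whose mRNA Ang II is known to lower, stood at 26.9 to 36.8 FPKM in Control and at 19.5, 19.1, 28.2, 50.4 and 27.2 FPKM in the 5 Ang II + QDG mice (log2 fold change −0.28, SE 0.25, adjusted p = 0.656 from limma), so it gave no check of the labels.

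Few genes passed the adjusted test. With limma, 12 genes were higher in Ang II + QDG than in Control at an adjusted p under 0.05, which is 0.0971% of the genes tested, and 4 were lower, which is 0.0324%. By the study's threshold, a fold change of at least 2 with an unadjusted p under 0.05, 56 genes (0.453%) were higher and 33 (0.267%) were lower. These counts moved with the pseudocount, to 142 and 64 with 0.1 and to 88 and 51 with 0.5, and median scaling gave 51 lower. At an unadjusted p under 0.05 alone, 1317 genes (10.7%) were higher and 460 (3.72%) lower. Every Ang II + QDG mouse was above every Control mouse in 344 genes (2.78%) and below in 106 (0.857%). The median log2 fold change over all genes was 0.06, and the median SE was 0.14, so a typical gene had a 95% interval of ±0.30 around its log2 fold change. In the plot of all genes tested, the called genes form a thin cap above a cloud that leans to the higher side.

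**Figure D1:**
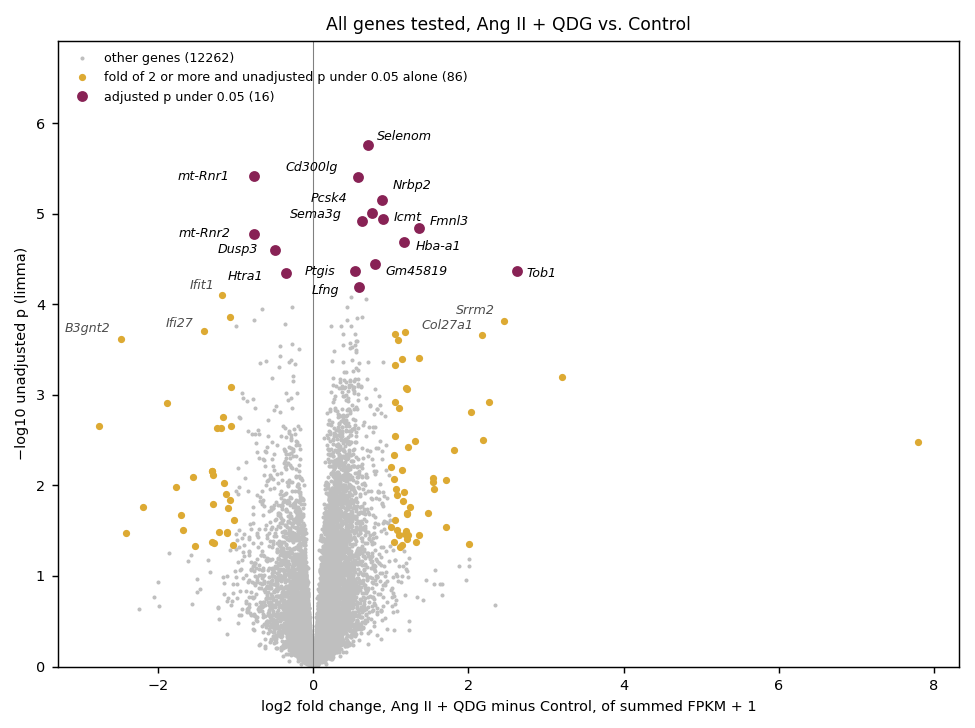
Each point is 1 of 12364 genes, placed by its log2 fold change (Ang II + QDG minus Control, horizontal, on summed FPKM + 1) and the −log10 of its unadjusted p from limma (vertical). The 16 genes with an adjusted p under 0.05 are named in black, 12 to the right and 4 to the left, and another 86 genes pass only the fold of 2 and the unadjusted p.

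The split between higher and lower depended on the scaling, and the number of calls on single mice. After quantile normalization 8 genes were higher and 7 lower, and after median scaling 8 and 12. Leaving out Control mouse 1, 3 or 4 left 6, 7 and 0 higher genes, and leaving out Control mouse 2 or 5 gave 91 and 14. The lower genes numbered 1, 5, 0, 19 and 16 without Control mouse 1, 3, 4, 2 or 5 in that order. Without Control mouse 4, limma called no gene at an adjusted p under 0.05 and 1493 at an unadjusted p under 0.05. Without Ang II + QDG mouse 1, 2 or 3 there were 4, 1 and 3 higher genes and 1, 1 and 1 lower. Removing Ang II mouse 3 or 2, which enter through the shared spread and the filter on genes, gave 17 and 12 higher and 9 and 6 lower genes. A fit on the 10 mice of these groups alone called 2 higher and 2 lower genes, all among the 16, so 12 of the calls were not made without the Ang II mice in the fit. In all of these fits the 16 genes kept the direction they had with all mice. Their log2 fold changes are given next with the number of alternative analyses in which each stayed past the threshold.

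Sema3g, a secreted semaphorin of arterial endothelium on chromosome 14 (31217860 to 31230352, GRCm38), had 13.9, 16.6, 16.5, 15.9 and 17.0 in Control and 25.7, 28.5, 27.3, 20.8 and 24.4 FPKM in Ang II + QDG. All 5 treated mice lay above all 5 Control mice, and the means of 16.0 ± 1.22 and 25.3 ± 2.98 FPKM (SD, n = 5 each) differed 1.59-fold (log2 fold change 0.63, SE 0.10, adjusted p = 0.0213 from limma; past the threshold in 20 of 26 alternatives). The Ang II mice had 28.3 to 36.0 FPKM. Cd300lg, a sialomucin of capillary and venular endothelium (chromosome 11, 102041509 to 102055620), had 9.96 to 12.8 in Control and 16.5, 16.4, 19.6, 16.5 and 16.3 FPKM in Ang II + QDG. Its groups do not overlap either, with 4 of the treated mice within 0.25 FPKM of each other (log2 fold change 0.57, SE 0.08, adjusted p = 0.016 from limma; 23 of 26 alternatives). Ang II mice had 14.2 to 17.4 FPKM of Cd300lg.

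Ptgis, prostacyclin synthase, which makes the vasodilator prostacyclin (chromosome 2, 167191805 to 167240604), was low in all mice. It had 1.70, 1.75, 1.09, 1.65 and 1.13 in Control and 2.60, 2.72, 2.51, 2.61 and 2.36 FPKM in Ang II + QDG (log2 fold change 0.54, SE 0.09, adjusted p = 0.0372 from limma). The gap between the groups was narrow and the call held in only 8 of 26 alternatives. Lfng, the fringe glycosyltransferase that modifies Notch receptors (chromosome 5, 140607320 to 140615545), went from 2.08 to 2.72 FPKM in Control to 3.31 to 4.74 FPKM in Ang II + QDG (log2 fold change 0.58, SE 0.10, adjusted p = 0.0498 from limma; 9 of 26 alternatives). Fmnl3, a formin that builds actin filaments and acts in angiogenesis (chromosome 15, 99317225 to 99370482), had 4.04, 1.72, 1.058, 1.69 and 0.970 in Control and 5.24, 6.48, 6.75, 5.98 and 5.71 FPKM in Ang II + QDG. Control mouse 1 stood apart from the other Control mice and still lay below every treated mouse (log2 fold change 1.36, SE 0.21, adjusted p = 0.0224 from limma; 20 of 26 alternatives). For Ptgis, Lfng and Fmnl3, the Ang II mice had 2.05 to 2.41, 3.55 to 5.13 and 4.22 to 7.17 FPKM.

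Alpha globin was the most abundant of the higher genes. Hba-a1 (chromosome 11, 32283511 to 32284465), a globin chain of red blood cells and their precursors, had 264, 202, 167, 187 and 216 in Control and 430.4, 430.2, 498, 323 and 719 FPKM in Ang II + QDG, with the top value in mouse 5. The difference was 2.32-fold (log2 fold change 1.17, SE 0.19, adjusted p = 0.0257 from limma; 20 of 26 alternatives), and Ang II mice had 249 to 407 FPKM. Hba-a1 and its near copy Hba-a2 share reads, so how the reads were divided between them is uncertain. Their sum was 249.6 to 533 in Control and 534 to 1436 FPKM in Ang II + QDG, groups that only just do not overlap. Of 8 erythroid genes tested, 5 were higher at an unadjusted p under 0.05 and none lower (all genes, 10.7% and 3.72%), with a median log2 fold change of 0.97. The beta globins Hbb-bs and Hbb-bt, named after their values were seen, had log2 fold changes of 1.08 and 1.31 (adjusted p = 0.216 and 0.138 from limma). The part of blood left in the tissue was not tested.

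Among the other higher genes, Tob1 had the greatest fold change. Tob1, an antiproliferative protein of the BTG/Tob family (chromosome 11, 94211454 to 94215495), had 5.43, 6.22, 5.72, 7.68 and 6.23 in Control and 47.7, 47.5, 41.6, 41.4 and 40.2 FPKM in Ang II + QDG, a 6.98-fold difference (log2 fold change 2.63, SE 0.45, adjusted p = 0.0372 from limma; 16 of 26 alternatives). The Ang II mice fell at 2 levels, 52.9 and 46.8 FPKM in mice 1 and 5 and 13.1, 8.38 and 6.89 FPKM in mice 2, 3 and 4. Selenom, a selenoprotein of the endoplasmic reticulum (chromosome 11, 3514684 to 3517351), had 22.9, 26.3, 20.2, 21.4 and 21.1 in Control and 36.6, 36.2, 32.8, 43.5 and 36.2 FPKM in Ang II + QDG. It was the steadiest of the higher genes, past the threshold in 25 of 26 alternatives (log2 fold change 0.70, SE 0.09, adjusted p = 0.016 from limma), with 27.7 to 34.5 FPKM in Ang II.

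Nrbp2, a pseudokinase, and Icmt, the methyltransferase that finishes prenylated proteins such as Ras, both about doubled. Nrbp2 (chromosome 15, 76085518 to 76091627) had 4.92, 8.78, 7.14, 4.84 and 6.40 in Control and 11.4, 12.1, 11.1, 12.7 and 15.01 FPKM in Ang II + QDG (log2 fold change 0.88, SE 0.13, adjusted p = 0.0213 from limma; 22 of 26 alternatives). Icmt (chromosome 4, 152297227 to 152307121) had 4.86 to 7.40 in Control and 13.1, 13.0, 14.5, 9.46 and 12.9 FPKM in Ang II + QDG (log2 fold change 0.90, SE 0.14, adjusted p = 0.0213 from limma; 18 of 26 alternatives). Most of the Icmt value lay in a transcript annotated for nonsense-mediated decay, at 4.69 FPKM on average in Control and 9.68 FPKM in Ang II + QDG, against 1.61 and 2.92 FPKM for the protein coding transcript. Pcsk4, a proprotein convertase known from germ cells (chromosome 10, 80321283 to 80329498), was represented by 3 retained-intron transcripts only, and went from 1.24 to 1.88 FPKM in Control to 2.47 to 3.90 FPKM in Ang II + QDG (log2 fold change 0.75, SE 0.11, adjusted p = 0.0213 from limma; 19 of 25 alternatives). Gm45819, a gene model on chromosome 7 (110119990 to 110121740) with no known function, is outside the naming rule because it is not protein coding. It had 0.907 to 1.54 FPKM in Control, 2.21 to 3.33 FPKM in Ang II + QDG and 0.785 to 1.87 FPKM in Ang II (log2 fold change 0.80, SE 0.13, adjusted p = 0.0369 from limma; 11 of 25 alternatives).

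Lower genes were led by the RNAs of the mitochondrial ribosome. The 12S rRNA gene mt-Rnr1 (mitochondrial genome, 70 to 1024) had 577, 498, 613, 559 and 615 in Control and 338, 392, 366, 305 and 283 FPKM in Ang II + QDG, 58.9% of Control (log2 fold change −0.77, SE 0.11, adjusted p = 0.016 from limma; 24 of 25 alternatives). The 16S rRNA gene mt-Rnr2 (1094 to 2675) had 564, 489, 576, 500.0 and 663 in Control and 277, 378, 371, 371 and 262 FPKM in Ang II + QDG, 59.4% of Control (log2 fold change −0.76, SE 0.12, adjusted p = 0.0227 from limma; 18 of 25 alternatives). No treated mouse came near the lowest Control mouse for either rRNA, and the Ang II mice had 284 to 409.7 FPKM of mt-Rnr1 and 289 to 372 FPKM of mt-Rnr2. The labels name a depletion of rRNA and the study's methods also a poly(A) step, and which of them was applied is not settled. Its part in these rRNA values was not tested. Of the other 9 mitochondrially encoded genes tested, mt-Nd6, a complex I subunit on the opposite strand, had the lowest p, with 1543 to 2434 in Control and 918 to 1946 FPKM in Ang II + QDG (log2 fold change −0.61, adjusted p = 0.199 from limma). For mt-Nd5, named after its values were seen, Control had 6194 to 7035 and Ang II + QDG 4637 to 6241 FPKM (log2 fold change −0.32, SE 1.82, adjusted p = 0.958 from limma). Ang II mouse 2, at 0.256 FPKM, widened the shared spread of mt-Nd5, so its p cannot place it among these genes. The median over all 11 was −0.12, and the abundant mRNA mt-Co1 averaged 30217 in Control and 27734 FPKM in Ang II + QDG (log2 fold change −0.13, adjusted p = 0.429 from limma). Without the mitochondrial transcripts in the scaling, 14 of the 16 calls were kept.

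Dusp3 and Htra1 were lower than in Control and also lower than in the Ang II mice. Dusp3, a phosphatase that acts on ERK and JNK kinases (chromosome 11, 101971143 to 101987013), had 16.5, 17.1, 14.6, 15.7 and 15.5 in Control and 10.9, 11.1, 11.1, 10.7 and 11.1 FPKM in Ang II + QDG, a very narrow range (log2 fold change −0.49, SE 0.08, adjusted p = 0.0281 from limma; 19 of 26 alternatives). Ang II mice had 14.98 to 21.4 FPKM of Dusp3 (Ang II + QDG minus Ang II, log2 fold change −0.66, adjusted p = 0.00265 from limma). For Htra1 that difference was −0.31 (adjusted p = 0.0248 from limma). Htra1, a secreted serine protease that cleaves matrix proteins (chromosome 7, 130936111 to 130985660), had 65.2 to 80.4 FPKM in Control, 51.5 to 56.3 FPKM in Ang II + QDG and 63.7 to 72.5 FPKM in Ang II. Its difference from Control was a log2 fold change of −0.35 (SE 0.06, adjusted p = 0.0372 from limma), which held in 11 of 26 alternatives. Because the comparisons share mice, their values are set side by side and not counted together. The plot of values by mouse shows that Control and Ang II + QDG do not overlap in any of the 16 called genes.

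**Figure D2:**
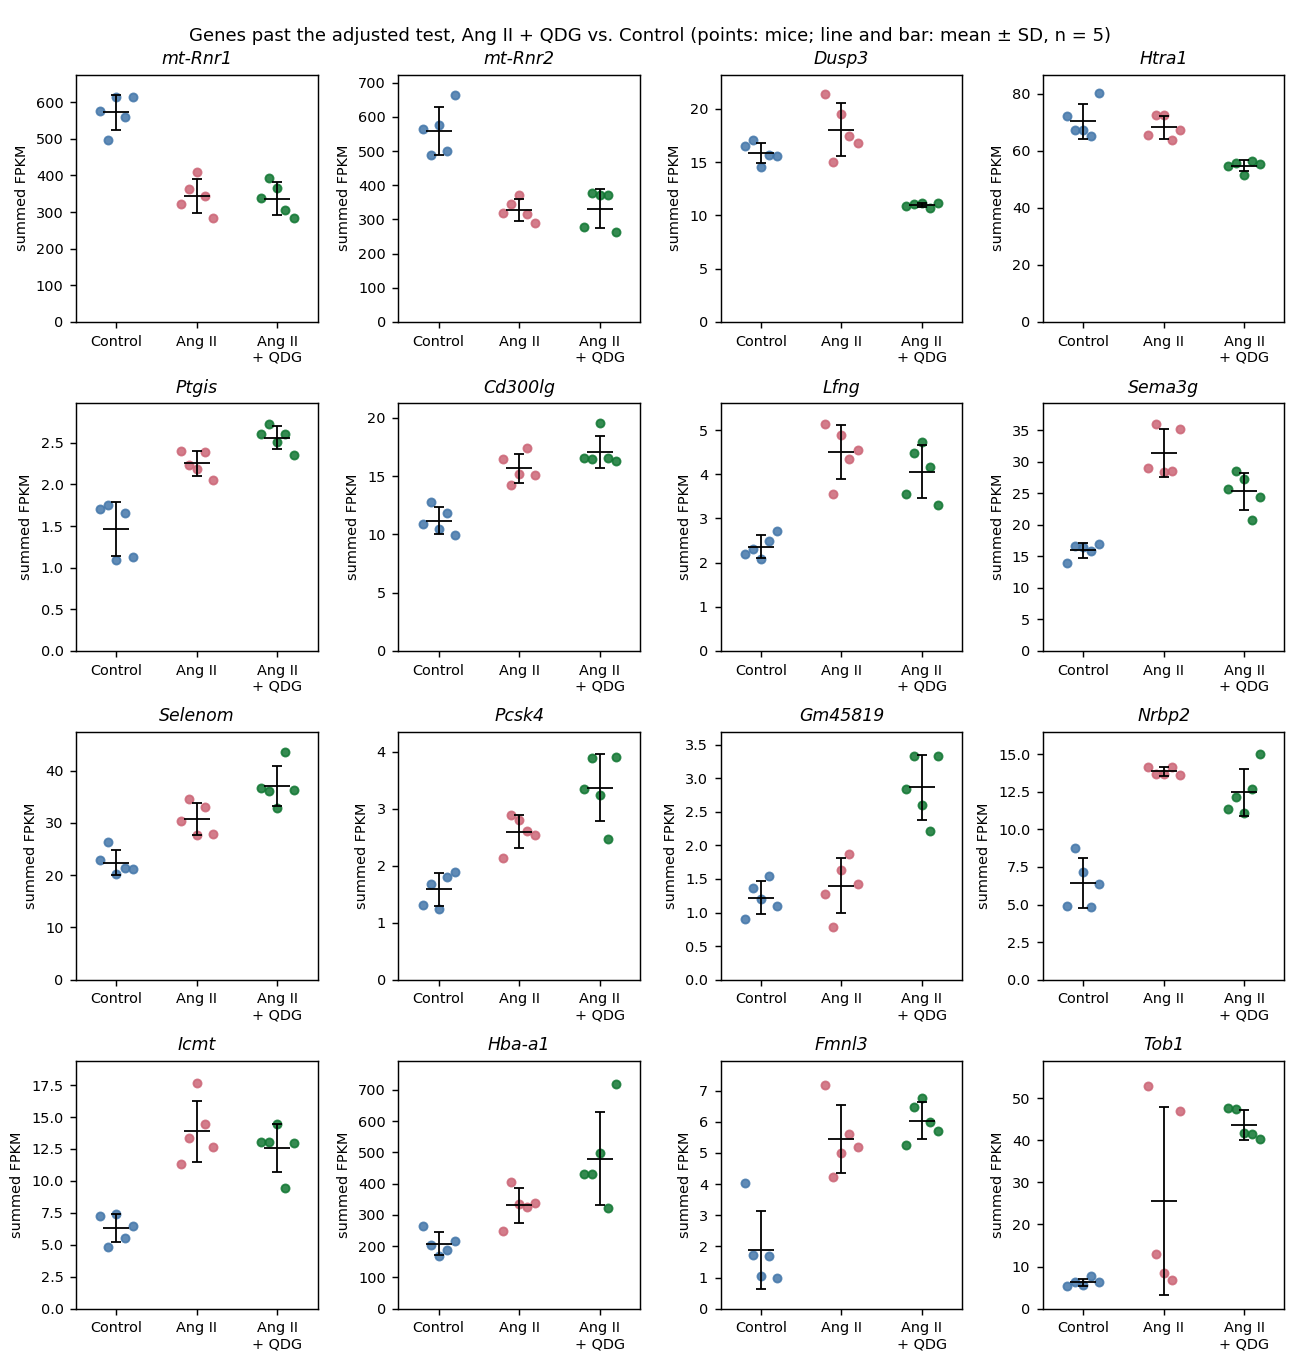
Summed FPKM (vertical axes, from 0) of the 16 genes with an adjusted p under 0.05, in order of log2 fold change from mt-Rnr1 to Tob1. Each point is a mouse of the Control, Ang II or Ang II + QDG group (horizontal), and the black line and bar are the mean ± SD (n = 5). Control and Ang II + QDG points are apart in every panel, and Tob1 in the Ang II mice falls at 2 levels.

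The next genes by the naming rule are those past the fold of 2 and the unadjusted p that did not pass the adjusted test. On the higher side these were Srrm2, Cish, Higd1c and Col27a1. Cish, an inhibitor of cytokine signalling through STAT5, had 3.71, 5.43, 2.53, 3.73 and 2.18 in Control and 8.67, 9.14, 5.73, 12.4 and 10.1 FPKM in Ang II + QDG (log2 fold change 1.18, SE 0.24, adjusted p = 0.069 from limma). Col27a1, a fibrillar collagen, had 0.0240, 3.95, 0.0744, 0.328 and 4.62 in Control and 9.17, 11.04, 7.22, 5.502 and 10.8 FPKM in Ang II + QDG (log2 fold change 2.18, adjusted p = 0.069 from limma), and 7.05 to 10.3 FPKM in Ang II. Control mice of Col27a1 split into 3 near 0 and 2 near 4 FPKM. Higd1c, of the HIG1 hypoxia domain family, had 0.0497 to 0.655 in Control and 1.21 to 2.75 FPKM in Ang II + QDG (log2 fold change 1.05, adjusted p = 0.069 from limma).

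Of the 13 genes that fill the lower side, Ifit1, Tgtp1, Ifi27, Isg15, Bst2 and Lgals3bp are genes known to respond to interferon. The list of interferon-stimulated genes was the one with the lowest median. Among 37 members tested, 19 were lower and 1 higher at an unadjusted p under 0.05 (3.72% and 10.7% of all genes), none passed the adjusted test in either direction, and the median log2 fold change was −0.33 against 0.06 for all genes. In Ang II minus Control the list's median was −0.56. Ifit1, an antiviral RNA-binding protein on chromosome 19, had 6.08, 5.99, 3.82, 7.33 and 2.57 in Control and 1.34, 2.48, 1.82, 1.27 and 1.31 FPKM in Ang II + QDG (log2 fold change −1.18, SE 0.21, adjusted p = 0.0562 from limma). The treated mice all lay below Control mouse 5, the lowest of its group, by a small margin. Cxcl10, a chemokine that attracts T cells, had 2.51 to 6.29 in Control and 1.12 to 2.39 FPKM in Ang II + QDG (adjusted p = 0.0657 from limma). Ang II mice had 1.05 to 2.07 FPKM of Ifit1 and 0.878 to 1.97 FPKM of Cxcl10. Their log2 fold changes from Control were −1.30 and −1.06 (adjusted p = 0.00742 and 0.0111 from limma). Parp9, the member that was higher, is named after its values were seen, and had 1.60 to 3.93 FPKM in Control, 3.90 to 5.73 FPKM in Ang II + QDG and 0.743 to 2.40 FPKM in Ang II (log2 fold change 0.82, adjusted p = 0.113 from limma).

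Part of the interferon list holds a known promoter motif. Interferon signalling works through the ISGF3 and IRF factors, which bind the interferon-stimulated response element. The letters GAAANNGAAA, searched on both strands from 250 bases before to 50 after the RefSeq start of each gene (GRCm38.p6), occur in 17 of the 29 members with a promoter in the table, 58.6%, and in 1079 of all 27025 genes, 3.99%. A match is a description of the letters and not of binding. The list holds genes chosen as interferon-stimulated, so its higher share follows from that choice and is no result of these mice. The promoters of 4 named members are shown because each holds that motif, in capitals (or TTTCNNTTTC, the same letters on the other strand), and overlapping matches form 1 run in Isg15 and Bst2. They lie at chr19:34640639-34640938 (plus strand), chr4:156200769-156201068 (minus), chr5:92348840-92349139 (minus) and chr8:71537423-71537722 (minus), and are given 5′ to 3′.
Ifit1: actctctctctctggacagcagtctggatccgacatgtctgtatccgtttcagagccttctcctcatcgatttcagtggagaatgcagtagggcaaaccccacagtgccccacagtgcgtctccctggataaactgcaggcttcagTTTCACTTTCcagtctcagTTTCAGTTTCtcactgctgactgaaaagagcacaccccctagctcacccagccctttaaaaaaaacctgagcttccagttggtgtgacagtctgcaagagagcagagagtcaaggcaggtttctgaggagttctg
Isg15: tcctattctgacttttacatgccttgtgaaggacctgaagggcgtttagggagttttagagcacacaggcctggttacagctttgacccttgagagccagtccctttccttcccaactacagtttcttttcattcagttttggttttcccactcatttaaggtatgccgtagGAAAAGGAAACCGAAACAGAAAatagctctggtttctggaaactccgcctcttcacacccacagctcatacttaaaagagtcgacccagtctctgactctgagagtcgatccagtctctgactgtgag
Cxcl10: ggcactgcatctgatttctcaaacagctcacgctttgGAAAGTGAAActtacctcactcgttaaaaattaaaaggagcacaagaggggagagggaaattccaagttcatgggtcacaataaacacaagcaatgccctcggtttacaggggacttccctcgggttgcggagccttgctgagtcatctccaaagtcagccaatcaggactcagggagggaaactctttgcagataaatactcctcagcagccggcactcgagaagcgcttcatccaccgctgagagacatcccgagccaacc
Bst2: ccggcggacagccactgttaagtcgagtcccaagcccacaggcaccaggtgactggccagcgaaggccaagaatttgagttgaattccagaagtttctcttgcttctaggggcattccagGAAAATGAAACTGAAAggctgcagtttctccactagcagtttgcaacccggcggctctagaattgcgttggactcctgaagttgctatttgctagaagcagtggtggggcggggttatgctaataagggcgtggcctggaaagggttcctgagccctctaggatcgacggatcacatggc

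The interferon group rested on 4 of the 5 Control mice. Ifi27, an interferon-induced membrane protein, had 72.8, 62.0, 49.996 and 82.7 FPKM in Control mice 1 to 4 and 20.8 FPKM in Control mouse 5, against 19.7, 20.4, 21.9, 20.1 and 14.5 FPKM in Ang II + QDG (log2 fold change −1.41, SE 0.28, adjusted p = 0.069 from limma). Control mouse 5 thus lay inside the treated range. Isg15, a ubiquitin-like modifier, had 6.08, 7.06, 5.22, 10.99 and 2.80 in Control and 1.46 to 3.01 FPKM in Ang II + QDG. Bst2, the membrane tether of budding viruses, had 37.3, 38.0, 23.4, 47.0 and 13.6 in Control and 10.2 to 17.7 FPKM in Ang II + QDG. Lgals3bp, a secreted glycoprotein, had 96.0, 120.3, 58.0, 131 and 26.1 in Control and 27.5 to 40.7 FPKM in Ang II + QDG. Tgtp1, an interferon-induced GTPase, had 3.62 to 8.31 in Control and 1.33 to 3.46 FPKM in Ang II + QDG (log2 fold change −1.07, adjusted p = 0.0657 from limma). The pattern is the same in each of these genes: mouse 5 was the lowest Control mouse, as it was in 23 of the 37 members. Ang II mice were at 17.1 to 25.1 FPKM of Ifi27, 1.77 to 3.52 FPKM of Isg15, 9.67 to 18.5 FPKM of Bst2 and 22.4 to 27.7 FPKM of Lgals3bp.

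Leaving out Control mouse 5, the lowest Control mouse in most of these genes, raises the Control means, so the fit without it is a description and no support for the difference. That fit called 30 of all genes at an adjusted p under 0.05 in either direction, against 16 with all mice. In it 5 of the 37 members were lower at an adjusted p under 0.05 with limma, and these are Ifi27 (log2 fold change −1.73, adjusted p = 0.000527), Ifit1 (−1.36, adjusted p = 0.0191), Isg15 (−1.27), Cxcl10 (−1.14) and Bst2 (−1.32). At an unadjusted p under 0.05, 21 were lower and 1 higher, and the median was −0.43, while 1685 of all genes passed in either direction and their median was 0.05. Without Control mouse 1, 2, 3 or 4 the list had 0, 1, 0 and 0 genes past the adjusted test and medians of −0.31, −0.29, −0.42 and −0.24. Leukocyte markers were read beside this group. Their summed level was 320.3 to 494 FPKM in Control, lowest in mouse 5, and 238 to 768 FPKM in Ang II + QDG, where mouse 4 had the top value and the other 4 mice had 238 to 421 FPKM. Of 23 leukocyte markers tested, 2 were lower and none higher at an unadjusted p under 0.05 (median log2 fold change −0.12), beside 3.72% lower and 10.7% higher of all genes, and none passed the adjusted test. Ptprc, which marks all leukocytes, was 0.190 to 1.90 in Control and 1.199 to 1.498 FPKM in Ang II + QDG. The part of leukocyte number in the interferon group was not tested.

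**Figure D3:**
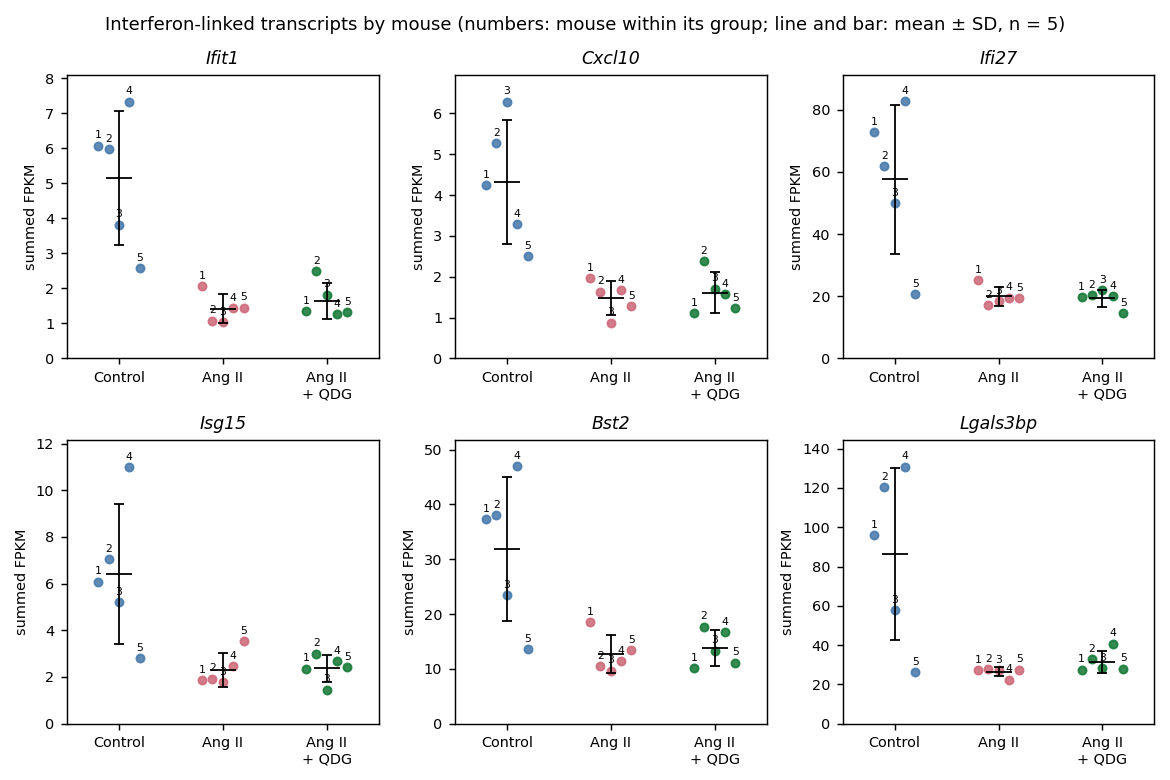
Summed FPKM (vertical axes, from 0) of 6 interferon-linked genes by group (horizontal: Control, Ang II, Ang II + QDG). Points are mice, numbered within their group, and the black line and bar are the mean ± SD (n = 5). Control mice 1 to 4 stand above nearly all treated mice, while Control mouse 5 lies near or within their range in Ifi27, Isg15, Bst2 and Lgals3bp.

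Genes of the glomerulus and vessel wall leaned to the higher side. Of 14 podocyte genes tested, 7 were higher and none lower at an unadjusted p under 0.05, against 10.7% higher and 3.72% lower of all genes, and the median log2 fold change was 0.37. Podxl, the anionic coat protein of podocyte foot processes that endothelium also makes, had 44.2 to 52.6 in Control and 56.1 to 73.1 FPKM in Ang II + QDG (log2 fold change 0.39, SE 0.08, adjusted p = 0.0826 from limma). Nephrin (Nphs1), named after its values were seen, had 8.40 to 10.7 in Control and 12.2 to 13.3 FPKM in Ang II + QDG. None of the 14 passed the adjusted test, and in 4 every Ang II + QDG mouse was above every Control mouse, as in 2.78% of all genes.

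All 19 smooth muscle and pericyte genes tested had a positive log2 fold change, as did 62.5% of all genes, with a median of 0.29, and 9 were higher and none lower at an unadjusted p under 0.05 (all genes, 10.7% and 3.72%). Myl9, the regulatory light chain of smooth muscle myosin, had 23.9, 27.4, 24.7, 31.8 and 23.4 in Control and 38.0, 43.2, 41.3, 35.9 and 35.5 FPKM in Ang II + QDG (log2 fold change 0.55, SE 0.12, adjusted p = 0.0774 from limma). Cspg4, the pericyte proteoglycan NG2, had 3.17 to 4.64 in Control and 4.56 to 6.02 FPKM in Ang II + QDG (log2 fold change 0.37, adjusted p = 0.119 from limma), and with protein coding transcripts alone its log2 fold change was −0.029. Among 25 endothelial genes, 8 were higher and none lower at an unadjusted p under 0.05 (median 0.28), where 10.7% of all genes were higher and 3.72% lower. Nos3, endothelial nitric oxide synthase, had 1.04 to 2.26 in Control and 2.11 to 2.86 FPKM in Ang II + QDG (log2 fold change 0.51, adjusted p = 0.0963 from limma). The list of collagens and extracellular matrix had 11 higher and none lower of 42 (median 0.21), against the same 10.7% and 3.72% of all genes, among them Sparc, a collagen-binding matrix protein, at 31.7 to 41.6 and 41.7 to 52.9 FPKM (log2 fold change 0.37, adjusted p = 0.132 from limma), and Col15a1, a basement membrane collagen, at 1.25 to 2.08 and 2.31 to 3.36 FPKM. No member of these lists passed the adjusted test, and in Ang II minus Control their medians were 0.24 for podocytes, 0.25 for smooth muscle, 0.30 for endothelium and 0.30 for matrix. In Ang II minus Control, Podxl, Myl9, Nos3 and Sparc had log2 fold changes of 0.35, 0.72, 0.56 and 0.50 (adjusted p = 0.0277, 0.00728, 0.0174 and 0.0154 from limma). Nphs1, Cspg4 and Col15a1 did not pass the adjusted test there. Without Control mouse 2, 1 podocyte, 1 smooth muscle and 2 endothelial genes passed the adjusted test in Ang II + QDG vs. Control. Over all genes 110 passed it in that fit, against 16 with all mice.

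Genes of salt and solute transport were read by segment. In the distal nephron list, 10 of 46 genes were higher and none lower at an unadjusted p under 0.05 (median log2 fold change 0.17), where 10.7% of all genes were higher and 3.72% lower. Slc26a4, pendrin, the chloride and bicarbonate exchanger of intercalated cells, had 27.2, 23.7, 26.4, 22.8 and 23.2 in Control and 32.7, 44.5, 33.8, 32.2 and 36.5 FPKM in Ang II + QDG (log2 fold change 0.52, SE 0.12, adjusted p = 0.0963 from limma). The groups do not overlap for this gene, and Ang II mice had 29.6 to 46.7 FPKM of Slc26a4. In the proximal tubule list, 1 of 48 genes was higher and 6 lower (median −0.02). Abcg2, the urate and drug efflux pump of the brush border, had 213 to 265 in Control and 182 to 219 FPKM in Ang II + QDG (log2 fold change −0.29, SE 0.06, adjusted p = 0.0826 from limma). Slco1a1, an organic anion transporter, had 8.09 to 12.6 FPKM in Control, 2.56 to 9.56 FPKM in Ang II + QDG and 7.44 to 15.3 FPKM in Ang II (log2 fold change −0.95, adjusted p = 0.119 from limma). In the renin-angiotensin list, 1 of 12 genes was lower and none higher: Ace, which makes Ang II from Ang I, had 46.2, 50.9, 53.3, 64.4 and 59.4 in Control and 44.9, 33.1, 40.4, 32.5 and 53.5 FPKM in Ang II + QDG (log2 fold change −0.43, adjusted p = 0.258 from limma). Ang II mice had 25.3 to 45.3 FPKM of Ace (log2 fold change from Control −0.63, adjusted p = 0.0381 from limma).

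Hsp90aa1 and Hsp90ab1, the cytosolic Hsp90 chaperones, led a list of 37 heat shock genes and chaperones with 6 lower and 2 higher at an unadjusted p under 0.05 (median −0.02), against 3.72% lower and 10.7% higher of all genes. Hsp90aa1 had 134, 146, 103, 144 and 105 in Control and 72.5, 67.2, 81.9, 94.8 and 81.2 FPKM in Ang II + QDG (log2 fold change −0.66, SE 0.12, adjusted p = 0.0627 from limma). Hsp90ab1 had 379 to 456 in Control and 323 to 352 FPKM in Ang II + QDG (log2 fold change −0.28, SE 0.05, adjusted p = 0.0627 from limma). The groups do not overlap for either gene, and Ang II mice had 84.4 to 116 FPKM of Hsp90aa1 and 344 to 379 FPKM of Hsp90ab1. Neither passed the adjusted test, while 2 chaperones did after median scaling, with transcripts of any file and without Control mouse 2 or Ang II mouse 3, and 1 without Control mouse 5 or Ang II + QDG mouse 4. Over all genes these fits called 20, 80, 110, 26, 30 and 19 in that order, against 16 in the main fit. Proteasome subunits had 10 lower and none higher of 38 (median −0.10), and 36 of 38 had a negative log2 fold change where 62.5% of all genes had a positive one. The differences were small, as in Psmd11, a lid subunit, at 21.05 to 25.6 in Control and 16.3 to 19.7 FPKM in Ang II + QDG (log2 fold change −0.31, adjusted p = 0.145 from limma).

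The endoplasmic reticulum stress list held its lead genes in opposite directions, with 5 of 30 lower and 2 higher at an unadjusted p under 0.05, against 3.72% and 10.7% of all genes. Xbp1, a transcription factor of the unfolded protein response, had 21.3, 19.9, 23.1, 22.6 and 18.3 in Control and 24.5, 28.2, 31.7, 29.4 and 35.6 FPKM in Ang II + QDG (log2 fold change 0.48, SE 0.09, adjusted p = 0.0562 from limma). Ang II mice had 25.9 to 28.3 FPKM of Xbp1. Creld2, a chaperone-like protein that endoplasmic reticulum stress induces, had 14.8 to 17.7 FPKM in Control, 10.2 to 14.4 FPKM in Ang II + QDG and 19.2 to 25.3 FPKM in Ang II (log2 fold change from Control −0.44, SE 0.10, adjusted p = 0.0866 from limma). The Ang II mice thus stood above Control for Creld2 and the mice that also took QDG below it.

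Genes of drug and hormone metabolism had 9 lower and 2 higher of 53 at an unadjusted p under 0.05 (median −0.03), beside 3.72% lower and 10.7% higher of all genes. Cyp2j5, a renal epoxygenase of arachidonic acid, had 725, 686, 697, 697 and 670.3 in Control and 628, 615, 577, 609 and 623 FPKM in Ang II + QDG, a small difference with tight groups (log2 fold change −0.19, SE 0.04, adjusted p = 0.0749 from limma). Cyp2b10, a xenobiotic-inducible enzyme, had 1.62 to 3.35 in Control and 0.2997 to 1.10 FPKM in Ang II + QDG (log2 fold change −0.95, adjusted p = 0.12 from limma). Cyp24a1, which breaks down active vitamin D, had 67.3, 65.7, 35.9, 32.9 and 50.1 in Control, 18.7, 27.3, 19.0, 7.77 and 31.1 FPKM in Ang II + QDG and 11.6 to 44.9 FPKM in Ang II (log2 fold change −1.31, adjusted p = 0.175 from limma). Glycolysis genes gave 2 higher and 2 lower of 19, a higher share near that of all genes, among them Slc16a1, a lactate transporter, at 7.87 to 14.1 in Control and 5.00 to 6.29 FPKM in Ang II + QDG (log2 fold change −0.75, adjusted p = 0.113 from limma).

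Clock genes had 8 higher and 2 lower of 22 at an unadjusted p under 0.05 (median 0.17), where 10.7% of all genes were higher and 3.72% lower. Per1, a repressor of the circadian clock, had 2.85, 8.33, 0.602, 2.42 and 0.955 in Control and 10.502, 7.96, 7.04, 7.03 and 10.9 FPKM in Ang II + QDG, with Control mouse 2 inside the treated range (log2 fold change 1.54, SE 0.50, adjusted p = 0.186 from limma). Npas2, a partner of the clock activator Bmal1, had 0.771 to 1.69 in Control and 0.222 to 0.561 FPKM in Ang II + QDG (log2 fold change −0.62, adjusted p = 0.148 from limma). The hour at which kidneys were taken is not given in the sources used here. The clock activators bind the E-box CACGTG, which 4 of the 16 clock genes with a promoter in the table hold (25.0%), against 2187 of 27025 genes (8.09%). This list was chosen as clock genes, so its share is likewise no result of these mice. The Per1 promoter (chr11:69098699-69098998, plus strand), shown for its E-box in capitals, reads as follows.
Per1: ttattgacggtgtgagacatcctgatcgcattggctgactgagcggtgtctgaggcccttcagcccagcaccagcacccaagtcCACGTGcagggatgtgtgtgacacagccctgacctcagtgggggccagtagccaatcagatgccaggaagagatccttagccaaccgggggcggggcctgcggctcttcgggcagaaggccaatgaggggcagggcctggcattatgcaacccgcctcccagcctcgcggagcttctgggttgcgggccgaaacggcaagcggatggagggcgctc

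Splicing regulators had 16 higher and none lower of 50 at an unadjusted p under 0.05 (all genes, 10.7% and 3.72%; median 0.20), and none passed the adjusted test. Ptbp1, a repressor of exon inclusion, had 46.2, 47.5, 50.7, 39.3 and 37.6 in Control and 70.3, 68.8, 61.0, 65.7 and 65.3 FPKM in Ang II + QDG (log2 fold change 0.58, SE 0.13, adjusted p = 0.0963 from limma), and 29.8 to 52.9 FPKM in Ang II. Nearly all of this came from a single retained-intron transcript, with 2.07, 2.14, 7.54, 1.34 and 1.97 in Control and 29.4, 19.0, 27.7, 19.5 and 25.4 FPKM in Ang II + QDG. With protein coding transcripts alone the log2 fold change of Ptbp1 was 0.13. Hnrnpl, another splicing factor, had 40.8 to 54.6 in Control and 55.0 to 62.8 FPKM in Ang II + QDG (log2 fold change 0.28, adjusted p = 0.113 from limma).

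**Figure D4:**
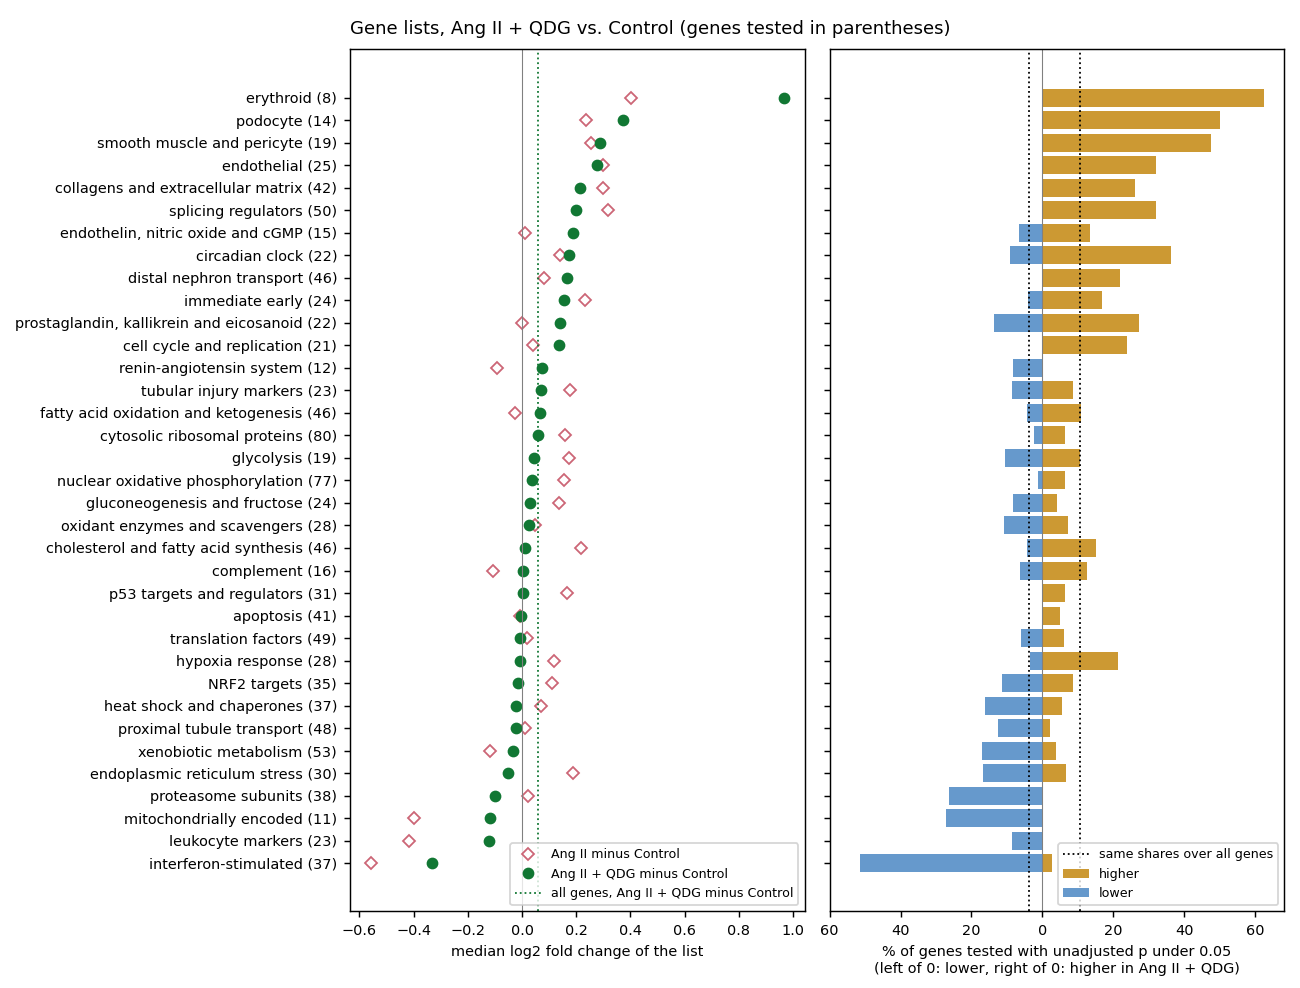
Left, the median log2 fold change (horizontal) of each gene list with at least 8 genes tested, as filled circles for Ang II + QDG minus Control and open diamonds for Ang II minus Control, which share the Control mice. Right, the percentage of the genes of each list with an unadjusted p under 0.05 in Ang II + QDG vs. Control, to the right of 0 for higher and to the left for lower, with dotted lines at the 10.7% and 3.72% of all genes. Erythroid, podocyte and smooth muscle genes are at the top and interferon-stimulated genes, at −0.33, at the bottom.

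The remaining lists are given as counts at an unadjusted p under 0.05, against 10.7% higher and 3.72% lower of all genes. Nuclear oxidative phosphorylation had 5 higher and 1 lower of 77, with Cox7a1, the muscle-type subunit of complex IV, at 12.3 to 14.9 in Control and 16.7 to 22.2 FPKM in Ang II + QDG (log2 fold change 0.51, adjusted p = 0.0963 from limma). Cytosolic ribosomal proteins had 5 higher and 2 lower of 80, translation factors 3 and 3 of 49, apoptosis genes 2 and 0 of 41, p53 targets and regulators 2 and 0 of 31, and tubular injury markers 2 and 2 of 23. NRF2 targets had 3 higher and 4 lower of 35, and oxidant enzymes and scavengers 2 and 3 of 28. Hypoxia genes had 6 higher and 1 lower of 28, fatty acid oxidation 5 and 2 of 46, and cholesterol and fatty acid synthesis 7 and 2 of 46. Immediate early genes had 4 higher and 1 lower of 24, cell cycle genes 5 and 0 of 21, gluconeogenesis and fructose genes 1 and 2 of 24, and complement genes 2 and 1 of 16. The prostaglandin, kallikrein and eicosanoid list, which holds Ptgis as its 1 member past the adjusted test, had 6 higher and 3 lower of 22, and endothelin, nitric oxide and cGMP genes 2 and 1 of 15. Of the adrenal markers, only Star and Akr1b7 were tested, and 1 of them, Star, was higher at an unadjusted p under 0.05. Star had 0.692 to 1.16 FPKM in Control, 0.848 to 0.929 FPKM in Ang II and 0.772 to 1.45 FPKM in Ang II + QDG. It thus passed the filter of 1 FPKM mainly through the Ang II + QDG mice, and its count is no support for a difference. Markers of skeletal muscle had no gene tested. Fat markers varied by mouse: Adipoq, the hormone of fat cells, was 0 to 4.13 in Control and 0.225 to 3.51 FPKM in Ang II + QDG, and none of 7 fat markers had an unadjusted p under 0.05.

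Several of the genes past the fold of 2 stood at separate levels within a group. B3gnt2, which builds polylactosamine chains, had 16.9 to 19.9 in Control, and 0.880, 1.13, 1.41 and 1.28 FPKM in 4 Ang II + QDG mice with 20.6 FPKM in mouse 5 (log2 fold change −2.48, SE 0.51, adjusted p = 0.0735 from limma). Kcnj15, a potassium channel, had 131, 13.6, 84.0, 40.9 and 76.6 in Control and 12.3 to 17.2 FPKM in Ang II + QDG, where Control mouse 2 was within the treated range (log2 fold change −1.88, adjusted p = 0.11 from limma). Srrm2, a scaffold protein of the spliceosome, had 1.11 to 3.06 in Control and 11.6, 11.7, 27.7, 3.34 and 34.6 FPKM in Ang II + QDG (log2 fold change 2.45, adjusted p = 0.0657 from limma), nearly all from a short retained-intron transcript that averaged 0.269 and 16.1 FPKM. With protein coding transcripts alone its log2 fold change was 0.02. Odf2l, Setd2 (the H3K36 methyltransferase), Angel2 and Sik1 (a salt-inducible kinase) complete the lower side by the rule, with adjusted p = 0.129, 0.176, 0.182 and 0.185 from limma and overlapping groups. The steepest fold change of all, named after its values were seen, was that of Gm22133, a microRNA gene model, listed at 0.226 to 0.245 in Control and at 2142, 1298, 0.266, 1090.5 and 408 FPKM in Ang II + QDG (log2 fold change 7.80, adjusted p = 0.139 from limma). Ang II mice had 2055, 2827, 0.232, 1296 and 2454 FPKM of Gm22133 (log2 fold change from Control 8.57, adjusted p = 0.0369 from limma).

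**Figure D5:**
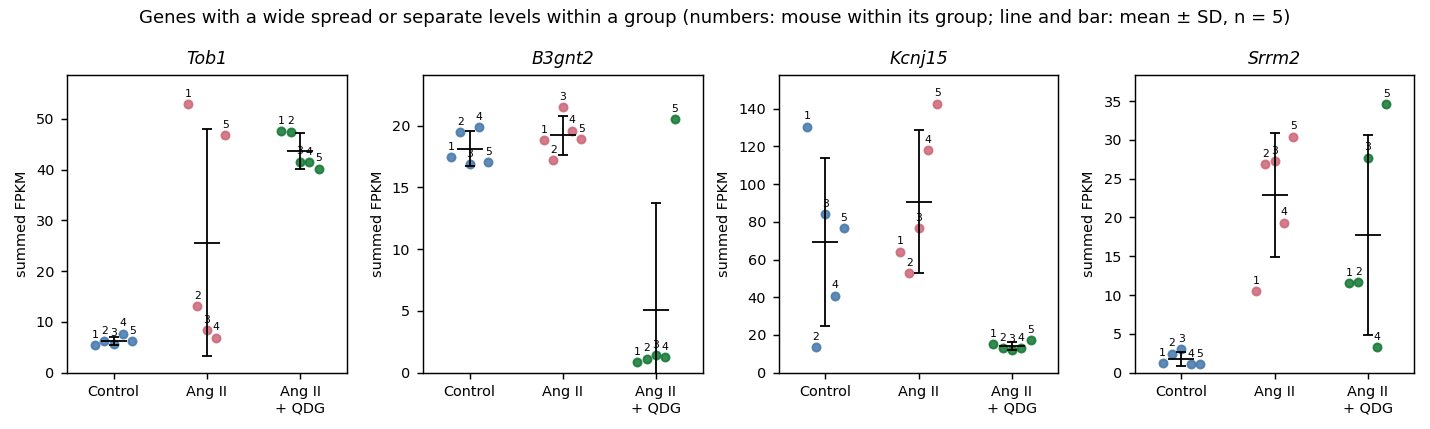
Summed FPKM (vertical axes, from 0) of Tob1, B3gnt2, Kcnj15 and Srrm2 by group (horizontal: Control, Ang II, Ang II + QDG). Points are mice, numbered within their group, and the black line and bar are the mean ± SD (n = 5). Ang II + QDG mouse 5 has 20.6 FPKM of B3gnt2 where the other 4 have at most 1.41.

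What could be compared was limited by how the transcripts were listed. The Control values cover 41477 transcripts and the Ang II + QDG values 42310, and each list holds transcripts whose larger mean of 2 groups, with Ang II always among them, is at least 0.500008 FPKM. A transcript present in Control alone, or in Ang II + QDG alone, is therefore missing from the other side. There were 1423 transcripts with values on the Control side only, 285 with a Control mean of 1 FPKM or more, and 2 at 1 FPKM or more in every Control mouse. Of 2256 transcripts listed for Ang II + QDG and Ang II only, 330 had an Ang II + QDG mean of 1 FPKM or more and 0 were at 1 FPKM or more in every Ang II + QDG mouse. With these transcripts included and set to 0 where unlisted, 61 genes were higher and 19 lower at an adjusted p under 0.05 with limma, and all 16 genes above were among them. Transcripts not listed for Control had an Ang II mean of at most 0.49983 FPKM, so they were listed through the Ang II + QDG mean alone. Those listed for Control only were listed through the Control mean. A 0 on the other side builds in a difference, so the added calls are no support for one.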

How the data were processed

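Kidney RNA of 15 mice, 5 per group by the labels, was sequenced by the authors after rRNA depletion; the study's methods also name a poly(A) step, and which applied is not settled. The deposited values, which the authors list by transcript and mouse, were taken as FPKM because a value times the transcript's GENCODE M21 length is a whole multiple, within 0.05, of a constant per mouse for 98.4% to 98.7% of values under 200 reads. The submitters' processing notes name mm10 and limma. The aligner, assembler and annotation are not given in the sources used here. Shared transcripts numbered 40054, of which 28871 matched a gene symbol, 11141 were assembled without a name and 42 were Ensembl transcripts outside M21.

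FPKM was summed per gene, kept at 1 or more in at least 5 mice, and log2(sum + 1) was tested with limma 3.58.1 (R 4.3.3; a mean per group, trend, 12 residual degrees of freedom), a step tested on simulated data. Samples, genes and lists were chosen with earlier results of these data known. Named genes were up to 15 protein coding genes per direction with an adjusted p under 0.05 by size of change, filled by unadjusted p among those with a fold of 2, up to 4 per list, or the 2 of lowest p where none passed, and Ren1; some genes that this rule names are not reported here. Alternatives changed the pseudocount (0.1, 0.5), filter, scaling, samples, moderation and transcripts. Promoters came from RefSeq (GRCm38.p6). No count test was run, because the values are not counts.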

Additional observations from a re-analysis of the deposited data

Results flagged for a closer look

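In groups of 5 mice, 17 of 196 checks of a named gene or marker sum found 1 mouse apart from the other 4 by a gap above Dixon's 95% critical value, where chance gives about 1 in 20 checks. Control mouse 2 had high Cfd (33.3 FPKM; others at most 7.81), Ephx1 (29.0) and Star (1.16). Ang II + QDG mouse 5 had high Cfd (26.7), Cidec (6.21) and summed fat markers (149.7; others at most 90.3), and B3gnt2 at 20.6 against at most 1.41. Cfd and Cidec are genes of fat cells. The summed fat markers of Control mouse 2 were 244 FPKM, with the other Control mice at 48.5 to 110.2, a gap that did not pass the critical value. Ang II + QDG mouse 3 had high Cd300lg (19.6), Npr1 (8.98) and Sik1 (1.27), mouse 4 high Ren1 (50.4), mouse 2 high Setd2 (2.86) and mouse 1 low Parp1 (12.7). Control mouse 1 had high Fmnl3 (4.04) and low P4ha1 (11.7), and Control mouse 3 low Rpl10a (129) and Setd2 (1.09).

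Data outside the gene sums also held differences. Among 7791 assembled transcripts without a gene name, 3 passed an adjusted p under 0.05 in the test of single transcripts with limma. MERGE.22969.4 was listed at 0 in every Control mouse and averaged 2.39 FPKM in Ang II + QDG (log2 fold change 1.72), MERGE.10149.5 averaged 4.45 and 0.00744 FPKM (−2.40), and MERGE.11917.4 averaged 57.6 and 34.5 FPKM (−0.73). Of the transcripts with values on the Control side alone, a protein coding transcript of Vav2, a guanine exchange factor, averaged 2.57 ± 1.39 FPKM and a retained-intron transcript of Gbp6, an interferon-induced GTPase, 2.43 ± 0.738 FPKM (SD, n = 5). Both transcripts were picked by their Control values and their levels in Ang II + QDG mice are not listed, so no difference can be read from them.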

How the results depend on the processing

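The 16 called genes kept their direction in all 412 gene and alternative pairs that could be fitted, and were past the threshold in 283. With single mice left out, genes higher at an adjusted p under 0.05 numbered 0 to 91 and lower 0 to 19, and by the fold of 2 the range was 44 to 85 higher and 30 to 46 lower. A fit on the 10 Control and Ang II + QDG mice alone called 2 higher and 2 lower genes, protein coding transcripts alone 5 and 1, and transcripts of any file 61 and 19. The last of these set unlisted values to 0, which builds in a difference between the groups. Quantile normalization gave 7 lower genes and median scaling 12, with 51 lower by the fold of 2. By the fold of 2, a pseudocount of 0.1 gave 142 higher and 64 lower and one of 0.5 gave 88 and 51. In the test of single transcripts, 4 were higher and 3 lower at an adjusted p under 0.05, and 337 were higher and 245 lower by the fold of 2. Of the genes named, only Cspg4 changed sign, to a log2 fold change of −0.029 with protein coding transcripts alone. Why the counts moved was not tested, and the counts without 1 mouse rest on 4 mice in its group. No filter, no trend, robust moderation and rescaling without mitochondrial transcripts kept each count within 1.5 times. Low FPKM and steps between transcripts of 1 gene limit single genes. No paired analysis was possible because the labels give no replicate numbers that groups could share.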

Other observations

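Of the transcripts listed on 1 side alone, the annotated ones of highest mean were uneven between mice. The mt-Atp6 transcript, a subunit of ATP synthase, was listed for Control alone at 0.153 to 739 FPKM (median 299). Selenop, the plasma selenium carrier, had a transcript listed for Ang II + QDG and Ang II alone at 0.0142 to 976 FPKM in Ang II + QDG (median 10.9). The mt-Nd5 sum was 4637 to 6241 FPKM in Ang II + QDG and 6194 to 7035 FPKM in Control, and was 0.256 FPKM in Ang II mouse 2.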
